A study of Homo sapiens with 4 samples.

Results

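The genes described here carry the symbols of mitochondrial ribosomal proteins, in A549 cells grown in 2D or 3D culture with or without hypoxia. They were chosen by symbol, as MRPL or MRPS followed by a number and at most 1 letter, with a mean of at least 1 FPKM over the 4 libraries. The rule takes in MRPS36, whose product is now placed outside the ribosome. It leaves out mitoribosomal proteins with other symbols, of which 6 are described further down. FPKM is a gene's fragment count divided by its transcript length and by the depth of its library, so levels of different genes may be compared on it. All 77 matching symbols passed that minimum, 48 of the large subunit series (MRPL) and 29 of the small subunit series (MRPS), out of 26255 symbols in the files, of which 12663 reached the same mean. None lay just outside the minimum, and the lowest, MRPL22, averaged 7.35 FPKM.

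Mitochondrial ribosomes translate the few messages of the mitochondrial genome, all of which encode subunits of the respiratory chain and ATP synthase. Their RNAs are made inside the mitochondrion, but every one of their proteins is encoded in the nucleus, translated in the cytosol and imported. Some of these proteins have counterparts in the ribosomes of bacteria, and others are additions found only in mitochondria; lung tissue and lung cancer cells express both kinds.

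A549 is a line of human lung adenocarcinoma cells. The 4 groups, with 1 library each, were wild-type A549 in 3D culture and in 2D culture, each in normoxia and in hypoxia. Values below come in a fixed order: normoxia then hypoxia in 3D, followed by normoxia then hypoxia in 2D. In 3D the cells lay on solidified Matrigel, a basement membrane extract, and in 2D on an ordinary dish; hypoxia was 1% oxygen, and all 4 groups spent 5 days in DMEM with 5% FBS. The stated purpose was to characterise structures, abbreviated MLSs in the labels, that hypoxia induces.

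The depth of the libraries, estimated from the spacing of low FPKM values, was about 11800000, 11300000, 23700000 and 38800000 fragments, and their FPKM sums ran from 473503 to 596102. CA9, the carbonic anhydrase induced through HIF, stood at 4.05, 199.7, 3.999 and 139 FPKM, and 8 of 8 HIF target genes rose in the limma test described below. All 6 epithelial markers checked (KRT8, KRT18, KRT19, KRT7, EPCAM and CDH1) reached at least 1 FPKM in every library, EPCAM only 1.43 to 2.73 FPKM. Of 8 markers of other cell types, CD3E was at 0 in all 4 libraries, PTPRC, PECAM1, VWF, PDGFRB and HBB stayed below 0.3 FPKM, COL1A1 ran from 0.614 to 13.2 FPKM and CD68 from 13.1 to 31.6 FPKM. The 8 summed to 32.5, 32.0, 22.9 and 26.3 FPKM, and their part in the results was not tested. In bulk RNA, fewer cells of a type and less RNA per cell cannot be told apart.

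The 77 genes were all expressed in all 4 libraries, at means spread 27.4-fold around a median of 37.9 FPKM. MRPL51 and MRPL33, both of the large subunit, had the highest means, 202 and 188 FPKM, followed by MRPS24 (119.9 FPKM), which encodes the counterpart of bacterial protein S3, MRPL12 (111 FPKM), the stalk protein that recruits translation factors, and MRPS34 (105 FPKM). At the low end, after MRPL22 of the polypeptide exit tunnel, came MRPL19 (8.80 FPKM), MRPL30 (9.46 FPKM), MRPS14 (10.2 FPKM) and MRPS31 (10.6 FPKM). The rank of the genes by level was close to the same in every library: log2 levels of the 77 correlated across genes at Pearson r from 0.96 to 0.98 between any 2 libraries, a description over genes that share libraries.

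The summed level of the 77 genes was 4158, 3372, 3503 and 3053 FPKM, highest in 3D normoxia and lowest in 2D hypoxia. As a share of each library's FPKM sum this was 0.765%, 0.566%, 0.740% and 0.587%, and here both hypoxia libraries lay below both normoxia libraries. Large subunit genes summed to 2686, 2172, 2250 and 1994 FPKM. Small subunit genes summed to 1472, 1200.3, 1253 and 1059 FPKM. The quotient of these sums, large over small, was 1.83, 1.81, 1.796 and 1.88, nearly the same in all 4 libraries.

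Gene by gene the order was also shared. In 3D normoxia 60 of the 77 genes (36 large, 24 small) had their highest level of the 4 libraries, against 24% of all genes tested; 8 had it in 2D normoxia (26.4%), 6 in 3D hypoxia (23.6%) and 3 in 2D hypoxia (25.9%). In 2D hypoxia 51 (29 large, 22 small) had their lowest level, against 23.5% of all genes tested. The lowest level fell in 3D hypoxia for 18 genes (28.3% of all genes), in 2D normoxia for 7 (22.8%) and in 3D normoxia for 1, MRPL32 (25.4%). The spread over the libraries was small: the coefficient of variation had a median of 16.0% and a maximum of 30.02%, 27 genes had a highest level over 1.5 times the lowest, and 0 of 77 had a highest level over 2 times the lowest.

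**Figure D1:**
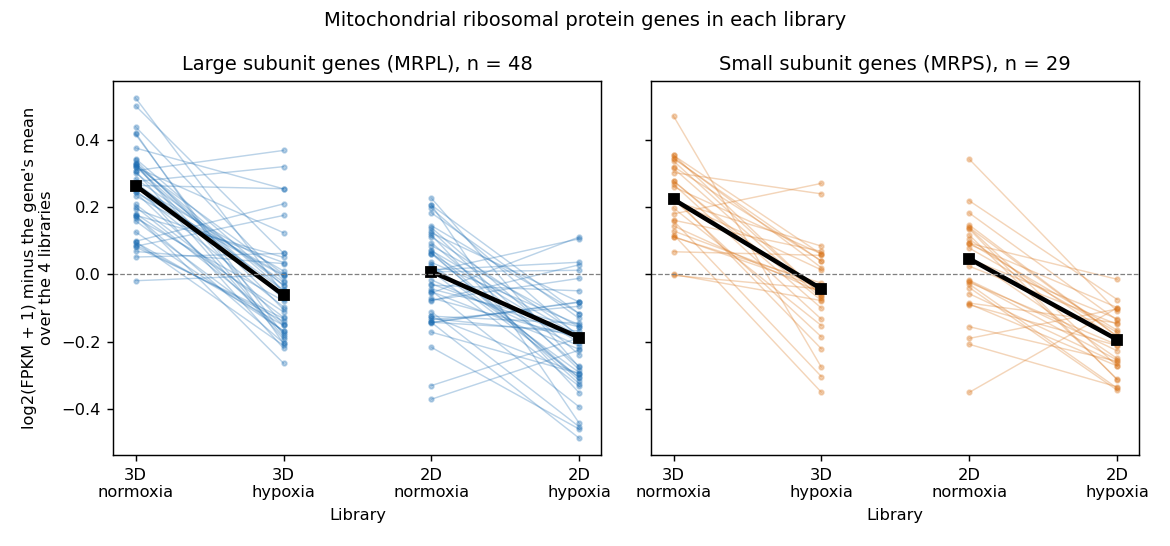
Each thin line is 1 gene in 1 culture, drawn as log2(FPKM + 1) minus the gene's mean over the 4 libraries (vertical axis) in each library (horizontal axis), with large subunit genes on the left and small subunit genes on the right; black squares are medians. In both panels the median is highest in 3D normoxia (0.26 and 0.22) and lowest in 2D hypoxia (-0.19 in both).

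MRPL32 was the steadiest gene. Its levels were 56.5, 57.2, 57.6 and 57.7 FPKM, with a coefficient of variation of 0.965%. All 4 libraries were level for this gene, whose product is trimmed by a protease of the inner membrane before it joins the large subunit. MRPL42 was the least steady, at 15.6, 10.1, 9.27 and 8.42 FPKM, with 3D normoxia standing alone above the other 3 libraries.

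The first comparison asks how these genes differed in hypoxia, in 3D (3D hypoxia against 3D normoxia) and in 2D (2D hypoxia against 2D normoxia), which share no library. Ratios are differences of log2(FPKM + 1), a scale that understates the change of low genes, and with 1 library in each group a single ratio has no replicate check. In 3D the median log2 ratio of the 77 genes was -0.31 (range -0.75 to 0.11), against -0.02 for all 12663 genes, and 70 of 77 lay below 0, against 52% of all genes. In 2D the median log2 ratio was -0.24 (range -0.65 to 0.25), against -0.00 for all genes, and 64 of 77 lay below 0, against 50.3%. Lower in hypoxia by at least 0.32 on the log2 scale, the smaller of 2 sizes counted, were 36 of 77 in 3D (16.4% of all genes) and 23 of 77 in 2D (16.2%). Higher by as much were 0 of 77 in 3D (17.1% of all genes) and 0 of 77 in 2D (15.5%). At 2-fold, the larger size, 0 of 77 were lower or higher in 3D (1.11% and 2.91% of all genes) or in 2D (1.59% and 2.01%). The shift was small in size and spread over most of the genes. With each library rescaled to one FPKM sum, which moved the median of all genes by -0.12 in 3D and -0.13 in 2D, 77 of 77 lay below 0 in 3D and 73 in 2D. On that scale 8341 of all 12663 genes lay below 0 in 3D and 8252 in 2D, more than as deposited.

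Both subunits had similar ratios. For large subunit genes the median log2 ratio was -0.32 in 3D and -0.22 in 2D, with 42 and 37 of 48 below 0. For small subunit genes it was -0.29 in 3D and -0.24 in 2D, with 28 and 27 of 29 below 0. The difference of medians, large minus small, was -0.03 in 3D and 0.01 in 2D on the log2 scale. It changed sign in 3D, to 0.08, over the 23 genes with no pseudogene named after them and no exon overlap with another coding gene in GENCODE 29.

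**Figure D2:**
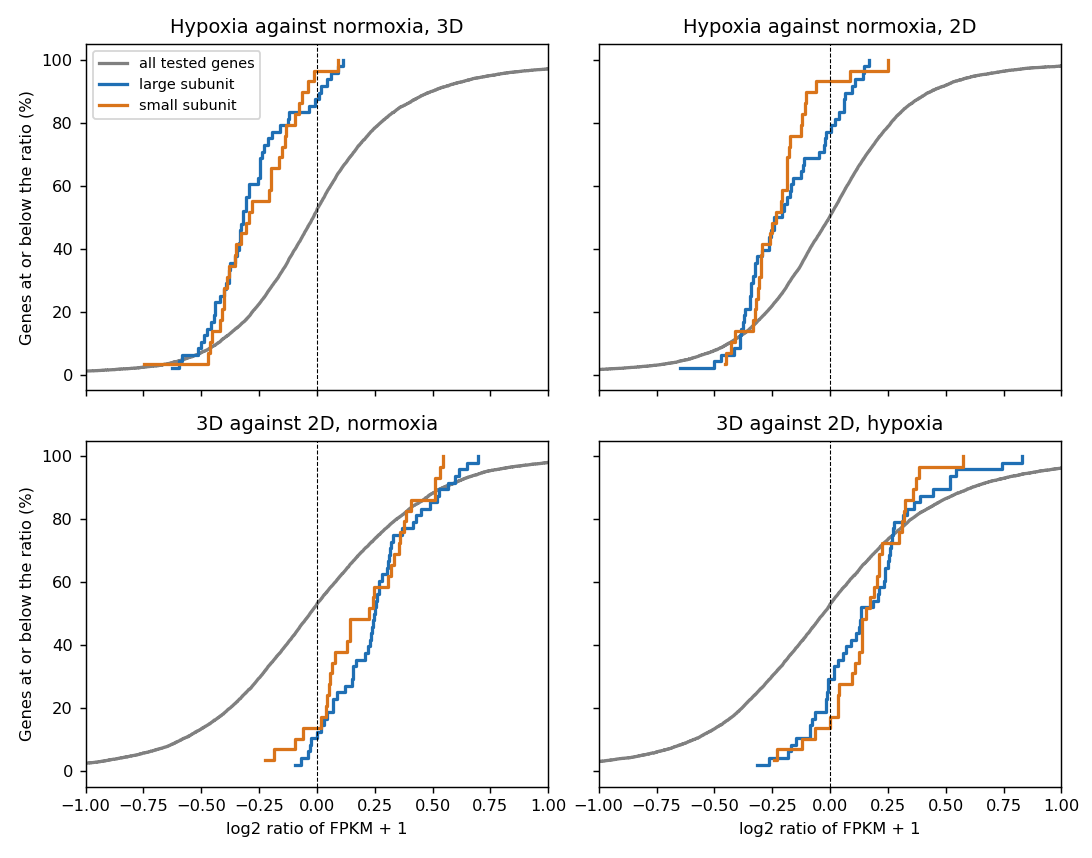
Cumulative share of genes (vertical axis, percent) at or below each log2 ratio of FPKM + 1 (horizontal axis) for the 4 pairs of libraries, with all tested genes in grey, large subunit genes in blue and small subunit genes in orange. In both hypoxia panels the coloured curves lie left of the grey one (medians of the 77 genes -0.31 and -0.24), and in both culture panels to its right over most of the range (medians 0.24 and 0.14); ratios beyond 1 in size are outside the axes.

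The average hypoxia effect over both cultures was tested with limma across all 12663 genes, in a fit of culture and oxygen to the 4 libraries with 1 residual degree of freedom. That degree of freedom is the difference between the 3D and the 2D response, so it holds noise together with any real difference of response. Nothing in the labels says that the libraries came from separate experiments. The p-values therefore rest on that difference, pooled with the spread of other genes, which may be technical. They do not measure a spread between replicates. The effect was below 0 for 72 of 77 genes, against 51.7% of all genes, with a median log2 difference of -0.25 against -0.01 for all genes. At an adjusted p below 0.05, 1 of 77 genes fell, MRPL41 (1.64% of all genes fell), and 0 rose (3.2% rose). At an unadjusted limma p below 0.05, 32 of 77 were lower (12.7% of all genes) and 0 were higher (12.9%).

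MRPL41 encodes a large subunit protein that bacteria lack. Its levels were 107, 70.2, 92.1 and 58.3 FPKM. Both hypoxia libraries lay below both normoxia libraries, an order that was not counted over all genes. The average log2 difference was -0.62 ± 0.12 (SE, limma, adjusted p = 0.0483), a hypoxic level 0.65 times the normoxic one, with log2 ratios of -0.60 in 3D and -0.65 in 2D. The call was close to the threshold and ended under 4 other settings, with limma adjusted p-values of 0.0501 with a pseudocount of 0.1, 0.0653 with libraries centred on the median gene, 0.0696 without the mean-variance trend and 0.132 with no filter on low values. MRPL41 has no named pseudogene and no exon overlap with another coding gene in GENCODE 29. Its promoter window, shown because it is the gene called in hypoxia, comes from RefSeq (GRCh38.p14, chr9:137551629-137551928, + strand, 250 bases before to 50 after the gene's start); it is printed in lower case throughout because it holds none of the motifs searched, which capitals mark in the windows further down.
MRPL41: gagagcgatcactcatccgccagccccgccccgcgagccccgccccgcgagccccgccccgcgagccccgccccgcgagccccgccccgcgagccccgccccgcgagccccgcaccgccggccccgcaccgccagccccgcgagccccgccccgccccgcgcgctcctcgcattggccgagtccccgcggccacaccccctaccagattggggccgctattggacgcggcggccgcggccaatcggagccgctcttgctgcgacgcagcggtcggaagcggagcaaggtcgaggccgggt

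MRPS12 encodes the small subunit protein of the decoding centre, where codon and anticodon are matched. At 138, 81.7, 108 and 79.7 FPKM, it had the lowest 3D log2 ratio of the 77, -0.75, beside -0.43 in 2D. Both hypoxia libraries lay at nearly one level, below both normoxia libraries. Its average log2 difference was -0.59 ± 0.14 (SE, limma, adjusted p = 0.0736), which missed the threshold; its exons overlap those of SARS2, and whether the counting used strand is not stated in the labels. Its RefSeq window (GRCh38.p14, chr19:38930694-38930993, + strand) is shown as that of the gene with the lowest 3D ratio, with capitals marking a match to the ETS-type motif CCGGAAG.
MRPS12: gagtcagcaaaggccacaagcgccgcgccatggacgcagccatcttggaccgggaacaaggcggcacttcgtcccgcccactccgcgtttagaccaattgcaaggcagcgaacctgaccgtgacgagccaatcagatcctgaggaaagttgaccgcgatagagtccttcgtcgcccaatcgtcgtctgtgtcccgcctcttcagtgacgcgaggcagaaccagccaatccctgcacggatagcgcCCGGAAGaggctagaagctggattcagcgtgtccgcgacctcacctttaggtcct

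The next 3 genes had limma adjusted p-values below 0.1, and each was lower in hypoxia in both cultures. MRPL46, a large subunit protein without a bacterial counterpart, stood at 38.6, 27.2, 37.4 and 26.1 FPKM, an average log2 difference of -0.50 ± 0.11 (SE, limma, adjusted p = 0.0707). For MRPS22, a mitochondrial addition to the small subunit, levels were 21.5, 15.3, 25.3 and 18.2 FPKM and the average was -0.46 ± 0.11 (SE, limma, adjusted p = 0.0799). MRPL4, which lines the exit tunnel, stood at 38.9, 28.4, 33.2 and 23.7 FPKM, an average of -0.46 ± 0.11 (SE, limma, adjusted p = 0.0827). In these 3 genes the hypoxia libraries lay below the normoxia libraries, and the 2 cultures gave nearly equal ratios. A low limma p goes with equal ratios, because the spread of the fit rests on the difference between them. The order of libraries was not counted over all genes, so it does not set these genes apart. These 3 and MRPS12 passed the threshold, with MRPL41, when libraries were rescaled to one FPKM sum.

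Some members had a lower hypoxia ratio in 3D than in 2D. MRPL36, of the large subunit, stood at 66.2, 42.5, 48.2 and 43.1 FPKM, log2 ratios of -0.63 in 3D and -0.16 in 2D. MRPL42 had log2 ratios of -0.58 and -0.12. For MRPL27, which reaches towards the peptidyl transferase centre, levels were 92.7, 64.6, 76.9 and 63.9 FPKM, log2 ratios of -0.51 and -0.26. In MRPL42 3D normoxia alone was high. In MRPL36 and MRPL27 2D normoxia also lay above both hypoxia libraries.

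In 2D, the 5 lowest log2 ratios belonged to MRPL41, MRPL46, MRPL4, MRPS22 and MRPS34 (-0.45). MRPS34, needed for a stable small subunit, stood at 126, 96.3, 114 and 83.0 FPKM. Each of the 5 was also below 0 in 3D.

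Proteins at the working sites of the large subunit had hypoxia ratios of different sizes. MRPL12, in several copies on the stalk, had log2 hypoxia ratios of -0.39 in 3D and -0.37 in 2D. Of the tunnel proteins, MRPL24 stood at 120.4, 94.5, 111 and 82.9 FPKM, with ratios of -0.35 and -0.41, and MRPL22, the least abundant of the 77, at 8.81, 6.35, 7.80 and 6.44 FPKM, with ratios of -0.42 and -0.24. In both tunnel genes the hypoxia libraries lay below the normoxia libraries. MRPL2 and MRPL3, of the conserved core around the catalytic centre, had ratios of -0.31 and -0.33 in 3D and of -0.32 and -0.11 in 2D. Others at such sites were nearer to 0 or differed in sign between cultures: the ratios were 0.06 in 3D and -0.24 in 2D for MRPL10 and -0.31 and 0.10 for MRPL11, at the stalk base, -0.04 and -0.38 for MRPL1, of the other stalk, and -0.12 and -0.34 for MRPL23, at the tunnel exit. None of these 9 passed the limma test in hypoxia; they were chosen for their sites, after their values were seen.

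In the small subunit, MRPS24, at the entry of the mRNA channel, differed less, at 134, 125, 113 and 108 FPKM with log2 hypoxia ratios of -0.09 and -0.06. The 3 paralogs of bacterial S18 take different places in the mitochondrial ribosome, MRPS18B and MRPS18C in the small subunit and MRPS18A in the large one. MRPS18B stood at 41.4, 33.3, 31.5 and 25.3 FPKM, MRPS18C at 15.04, 12.2, 11.1 and 9.63 FPKM and MRPS18A at 27.4, 24.8, 26.1 and 23.0 FPKM. Each of the 3 was lower in hypoxia in both cultures; MRPS18B and MRPS18C were also lower in 2D than in 3D by 0.31 to 0.41 on the log2 scale, MRPS18A by 0.07 in normoxia and 0.11 in hypoxia. The differences between the paralogs were not tested.

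At the other end were genes with similar or higher levels in hypoxia as deposited; rescaled to one FPKM sum, only MRPS6, MRPL54, MRPL33 and MRPL30 lay above 0, all 4 in 2D. MRPS6, a small subunit protein conserved in bacteria, stood at 47.7, 50.9, 32.7 and 39.1 FPKM, with the highest 2D log2 ratio, 0.25, and 0.09 in 3D. MRPL17, conserved in bacteria and of the large subunit, had the highest 3D log2 ratio, 0.11, at levels of 31.4, 34.0, 26.6 and 25.7 FPKM. MRPL45, which ties the ribosome to the inner membrane, stood at 31.2, 33.3, 27.9 and 25.7 FPKM, log2 ratios of 0.09 and -0.12. None of these 3 had a limma adjusted p near the threshold in hypoxia; the lowest was 0.413, for MRPS6.

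Over both cultures, 60 of 77 genes (33 large, 27 small) had both hypoxia ratios below 0, against 36.7% of all genes. In 17 (11 large, 6 small) both were lower by at least 0.32 on the log2 scale, against 7.55%. Both ratios were above 0 in 3 genes, MRPL32, MRPL54 and MRPS6, against 34.2%. Of the 14 genes with ratios of opposite sign (28.7% of all genes), 13 were large subunit genes and 1, MRPS10, was of the small subunit. This split depended on scaling. Rescaled to one FPKM sum, 77 of 77 lay below 0 in 3D, and only MRPL30, MRPL33, MRPL54 and MRPS6 lay above 0 in 2D.

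**Figure D3:**
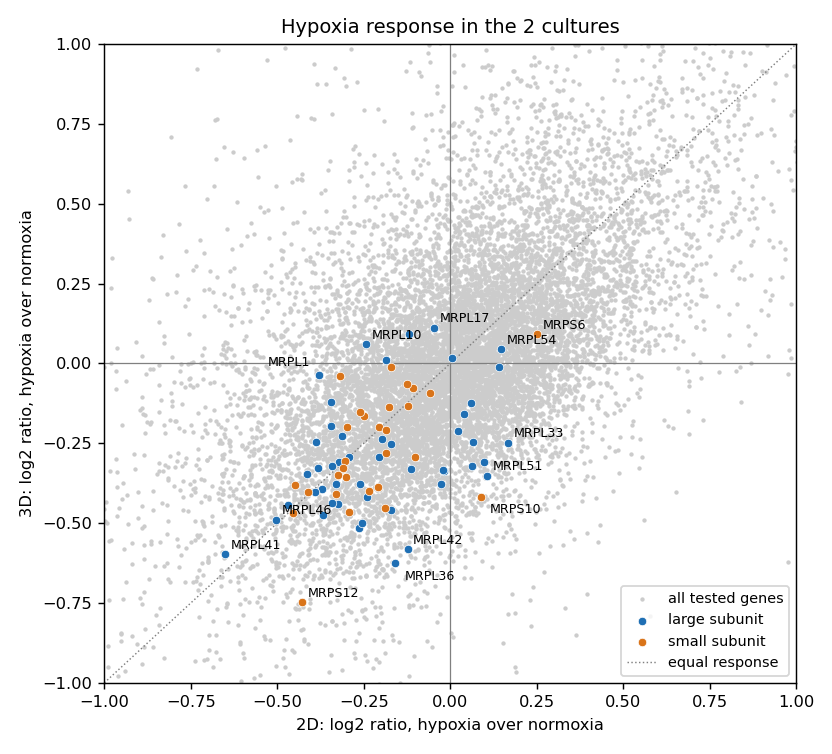
Log2 ratio of hypoxia over normoxia in 3D (vertical axis) against that in 2D (horizontal axis), with large subunit genes in blue, small subunit genes in orange and all tested genes in grey; ratios beyond 1 in size are outside the axes. Most coloured points (60 of 77) lie below 0 on both axes, with MRPL41 and MRPS12 farthest out and MRPL33, MRPL51 and MRPS10 below 0 in 3D and above 0 in 2D.

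The 2 most abundant genes were among those of opposite sign. MRPL51, a large subunit protein without a bacterial counterpart, stood at 231, 181, 190.1 and 205 FPKM, log2 ratios of -0.35 in 3D and 0.11 in 2D. MRPL33, conserved in bacteria, stood at 200.3, 169, 180.3 and 203 FPKM, log2 ratios of -0.25 and 0.17. In both genes hypoxia was the lower library in 3D and the higher in 2D; on rescaling to one FPKM sum the sign in 2D held for MRPL33 and not for MRPL51. MRPS10 showed the same order, at 21.0, 15.5, 14.1 and 15.03 FPKM, log2 ratios of -0.42 and 0.09, the second of which also turned below 0 on rescaling. With 1 library in each group the difference of 2 responses could not be tested; the counting error of a single log2 ratio, from the estimated depth, had a median of 0.09 in 3D and 0.06 in 2D over the 77 genes.

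The 3D response minus the 2D response had a median of -0.04 over the 77 genes (range -0.51 to 0.34), against -0.01 for all genes, and 49 of 77 (63.6%) lay below 0, against 51.8% of all genes. Over the 23 genes with neither a named pseudogene nor an exon overlap the share was 52.2%. Differences of at least 0.32 in the lower direction were seen in 8 genes (12.8% of all genes), led by MRPS10 (-0.51), MRPL36 (-0.47), MRPL51 (-0.46), MRPL42 (-0.46) and MRPL33 (-0.42). In the other direction there was 1, MRPL1 (0.34; 15.7% of all genes), of the stalk through which spent tRNA leaves, at 13.9, 13.5, 14.6 and 11.0 FPKM. Next to it were MRPL10 (0.30), MRPS5 (0.28), MRPL23 (0.22) and MRPL45 (0.21). Large subunit genes had a median of -0.09 and small subunit genes of -0.02.

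The second comparison asks how 3D differed from 2D, in normoxia and in hypoxia; these pairs reuse the libraries of the hypoxia ratios. In normoxia the median log2 ratio of 3D over 2D was 0.24 (range -0.22 to 0.70), against -0.03 for all genes, and 68 of 77 lay above 0 (46.9% of all genes). In hypoxia it was 0.14 (range -0.32 to 0.83), against -0.03 for all genes, and 58 of 77 lay above 0 (47%). Higher in 3D by at least 0.32 on the log2 scale were 23 of 77 in normoxia (21.3% of all genes) and 14 in hypoxia (21.9%), and lower by as much were 0 in both (23.8% and 24.4%). The level of this shift depended on scaling: with each library rescaled to one FPKM sum, the medians were 0.05 and -0.04, and 59.7% and 44.2% of the genes lay above 0. The same rescaling lowered the median of all genes by 0.18 in both pairs, to -0.21 in each. Of all 12663 genes, 4044 and 4060 then lay above 0. Large subunit genes had medians of 0.25 and 0.13, small subunit genes of 0.23 and 0.16.

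By limma, averaged over both oxygen levels, 8 of 77 genes rose in 3D (10.4% of all genes) and 0 fell (11.6%). The share that rose was near that of all genes, so it does not set the 77 apart. At an unadjusted limma p below 0.05, 19 were higher (18.8%) and 0 were lower (21.5%). The 8 were MRPL10, MRPL54, MRPL23, MRPS36, MRPL53, MRPL30, MRPS6 and MRPL40. Rescaled to one FPKM sum, 3 rose, MRPL10, MRPL54 and MRPL23, and 1 fell, MRPS22, where 767 of all 12663 genes rose and 3132 fell. With no filter on low values none of the 8 passed, at limma adjusted p-values of 0.0613 to 0.0924.

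MRPL10 forms the base of the stalk and holds MRPL12 in place. Its levels were 42.02, 43.9, 28.9 and 24.2 FPKM, and both 3D libraries lay above both 2D libraries. The average log2 difference was 0.68 ± 0.13 (SE, limma, adjusted p = 0.0231), 1.60 times higher in 3D, and its log2 ratio of 0.83 in hypoxia was the highest of the 77. MRPL12 itself stood at 137, 104, 114 and 88.3 FPKM, with log2 ratios of 3D over 2D of 0.26 and 0.24 (average 0.25 ± 0.12, SE, limma, adjusted p = 0.183). Thus the base and the protein it holds differed in size of ratio, and the difference between them was not tested. MRPL11, the other protein of the stalk base, stood at 30.3, 24.3, 28.4 and 30.5 FPKM and had the lowest log2 ratio of 3D over 2D in hypoxia, -0.32.

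MRPL23, at the exit of the polypeptide tunnel, stood at 84.3, 77.4, 58.5 and 45.9 FPKM, an average log2 difference of 0.63 ± 0.13 (SE, limma, adjusted p = 0.0252). Other proteins around the tunnel were nearer to level: the averages were 0.24 for MRPL4, 0.07 for MRPL22 and 0.15 for MRPL24, and none of these passed the test. In MRPL23 both 3D libraries lay above both 2D libraries.

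A pair of mitochondrial additions to the large subunit that rose in 3D are shown with their RefSeq windows (GRCh38.p14), as examples that hold motifs searched. The windows of MRPL30 and MRPL40, which also rose, hold such motifs too, and that of MRPS6 holds none. Whether a motif goes with the 3D ratio was not tested. MRPL54 stood at 49.6, 51.1, 31.3 and 34.7 FPKM, an average log2 difference of 0.60 ± 0.12 (SE, limma, adjusted p = 0.0239). MRPL53 stood at 118, 86.9, 76.9 and 60.4 FPKM, an average of 0.56 ± 0.12 (SE, limma, adjusted p = 0.0291); its exons overlap those of CCDC142. For both genes the 3D libraries lay above the 2D libraries, an order that was not counted over all genes. In MRPL53, unlike MRPL54, each hypoxia library lay below its normoxia partner. The windows are at chr19:3762432-3762731 (+ strand, MRPL54) and chr2:74472631-74472930 (- strand, MRPL53), with matches in capitals: CCGGAAG or its reverse complement CTTCCGG in both, and ACGTG, the core of the hypoxia response element, in MRPL54.
MRPL54: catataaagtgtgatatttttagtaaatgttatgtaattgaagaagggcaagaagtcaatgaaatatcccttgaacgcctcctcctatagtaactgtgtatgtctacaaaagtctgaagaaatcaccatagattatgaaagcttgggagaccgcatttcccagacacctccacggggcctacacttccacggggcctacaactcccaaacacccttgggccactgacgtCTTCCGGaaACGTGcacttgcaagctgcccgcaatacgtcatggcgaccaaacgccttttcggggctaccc
MRPL53: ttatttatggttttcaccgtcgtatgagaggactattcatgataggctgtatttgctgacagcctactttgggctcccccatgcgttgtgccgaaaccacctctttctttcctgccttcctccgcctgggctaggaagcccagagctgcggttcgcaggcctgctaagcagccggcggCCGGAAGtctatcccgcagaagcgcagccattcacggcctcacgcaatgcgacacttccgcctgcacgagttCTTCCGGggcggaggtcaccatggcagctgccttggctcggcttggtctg

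The other 4 that rose in 3D had lower or less certain values. MRPS36 stood at 25.9, 24.7, 17.9 and 16.3 FPKM (average log2 difference 0.54); despite its symbol its product is now placed in the 2-oxoglutarate dehydrogenase complex, and it has 5 named pseudogenes. MRPL30 stood at 11.4, 11.3, 7.18 and 8.03 FPKM (0.52), MRPS6 at the levels given above (0.45) and MRPL40 at 50.4, 43.9, 38.8 and 30.3 FPKM (0.44). Their limma adjusted p-values were 0.0278, 0.0331, 0.0478 and 0.0491. In each of the 4 genes both 3D libraries lay above both 2D libraries. That order was not counted over all genes, so it does not set apart any of the genes that rose.

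Both culture ratios were above 0 in 55 of 77 genes (36% of all genes). Both were higher by at least 0.32 on the log2 scale in 10, a share near the 13.6% of all genes. These were the 8 above, MRPS18B and MRPS35. Both were below 0 in 6 (41.9%), MRPL9, MRPL32, MRPL38, MRPS22, MRPS25 and MRPS31. MRPS22 had the lowest log2 ratio in normoxia, -0.22, and -0.24 in hypoxia. It was higher in 2D at both oxygen levels and lower in hypoxia in both cultures, so that 2D normoxia was its highest library. The next lowest in normoxia were MRPS5 (-0.19), MRPL9 (-0.10), MRPS25 (-0.09) and MRPL1 (-0.07), of which MRPS5 stood at 48.9, 47.6, 55.8 and 44.5 FPKM. In hypoxia the lowest after MRPL11 were MRPL33 (-0.26), MRPS22, MRPS31 (-0.23) and MRPL51 (-0.18).

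MRPL42 had the highest log2 ratio of 3D over 2D in normoxia, 0.70, and 0.24 in hypoxia; it has 4 named pseudogenes. MRPL50, like MRPL42 a protein that bacteria lack, was also among the 5 highest in normoxia, at 44.2, 31.9, 29.6 and 26.2 FPKM with ratios of 0.56 and 0.28. In both genes the 3D normoxia library stood apart and the 3D hypoxia library lay just above the 2D libraries. The low-abundance genes MRPL19 and MRPS14 had levels of 11.3, 8.47, 7.78 and 7.63 FPKM and of 12.2, 10.5, 9.62 and 8.20 FPKM, and MRPS31 of 11.8, 8.29, 12.4 and 9.90 FPKM. Unlike the first pair, which were higher in 3D at both oxygen levels, MRPS31 had its highest level in 2D normoxia and its lowest in 3D hypoxia.

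**Figure D4:**
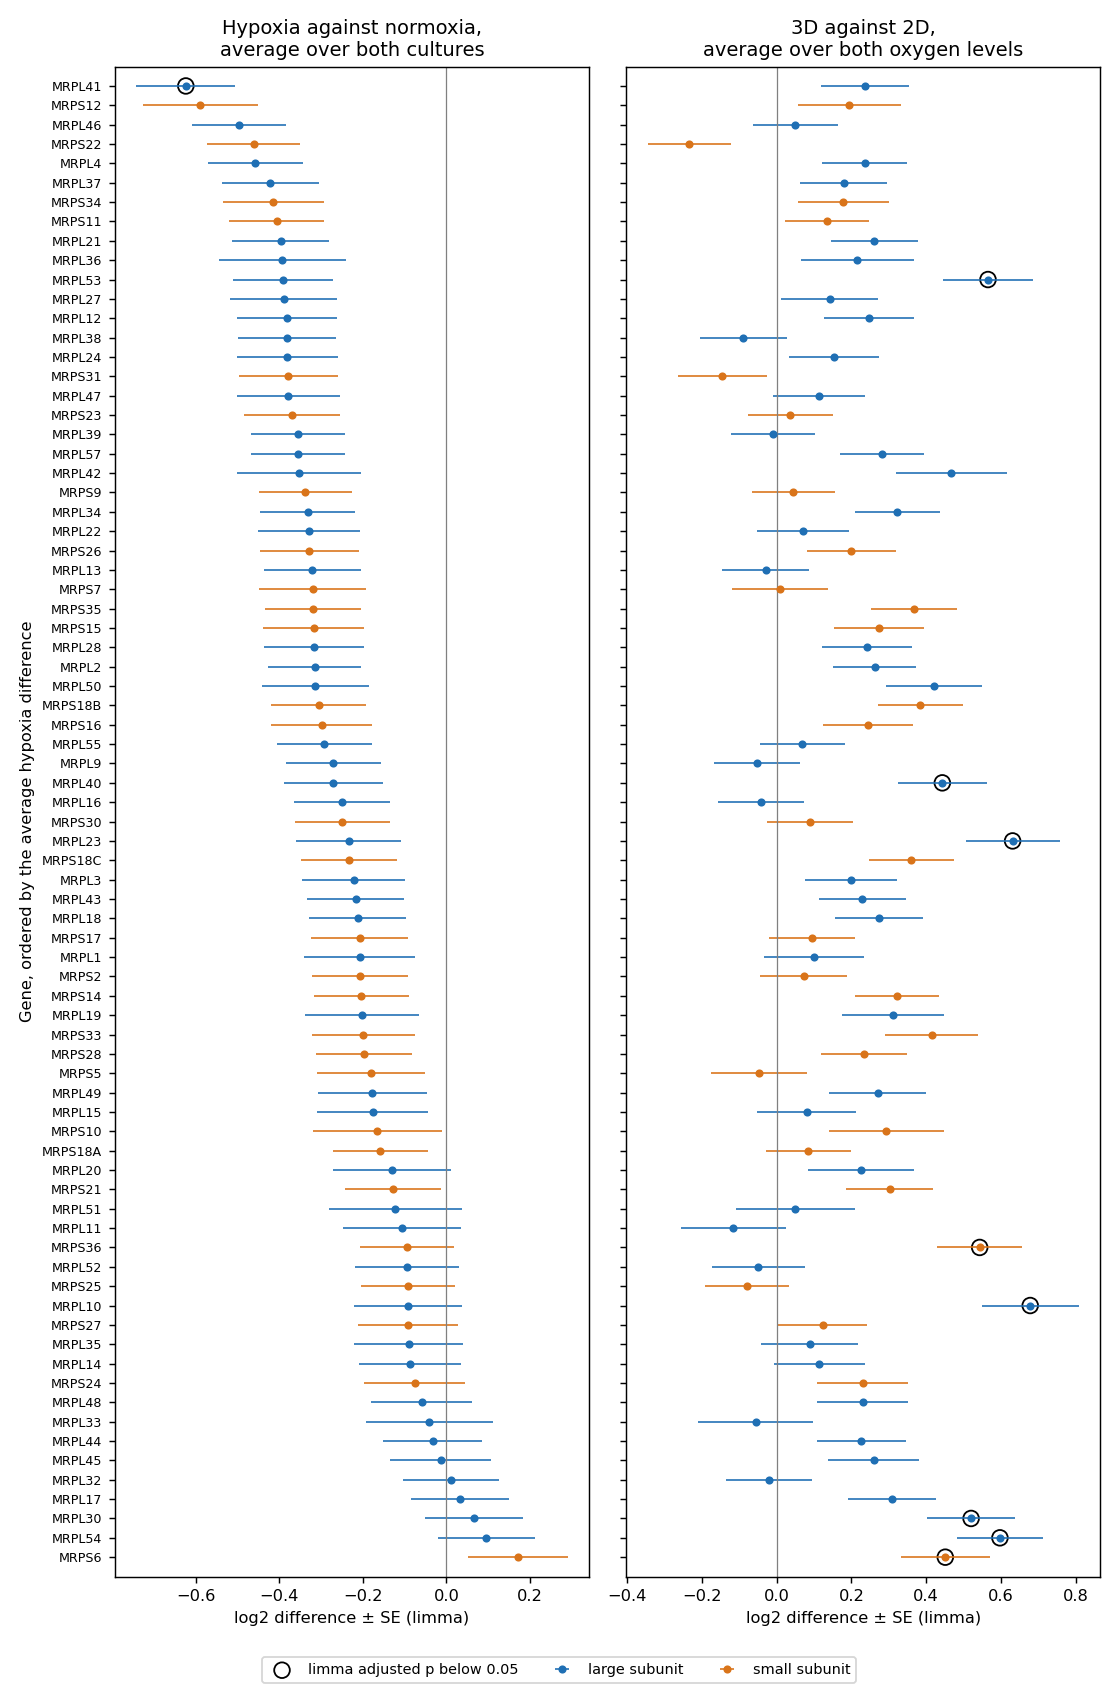
Average log2 differences with standard errors from limma (horizontal axes) for all 77 genes (vertical axis, ordered by the hypoxia effect): hypoxia against normoxia on the left, 3D against 2D on the right; rings mark adjusted p below 0.05. On the left 72 of 77 points lie below 0 (51.7% of all genes) with 1 ring, MRPL41 (1.64% of all genes fell). On the right 64 lie above 0 (47.3% of all genes) with 8 rings, a share near the 10.4% of all genes that rose.

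Members were also grouped by place and origin in the ribosome, with MRPS30 and MRPS18A counted in the large subunit, where their products sit, and MRPS36 left out. The 30 large subunit proteins conserved in bacteria had median log2 hypoxia ratios of -0.31 in 3D and -0.24 in 2D. For the 20 mitochondrial additions of the large subunit these were -0.33 and -0.19. The 16 conserved proteins of the small subunit had -0.24 and -0.21. The 10 additions of the small subunit had -0.34 and -0.30, with 10 of 10 below 0 in both cultures. With this grouping the large minus small difference in 3D was 0.00, against -0.03 by symbol.

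A member's level or length said little about its hypoxia ratio. Across the 77 genes, log2 mean FPKM and the ratio had Pearson r of -0.09 in 3D and -0.06 in 2D, and transcript length (median 1035 bases, 461 to 3332) had r of -0.04 and -0.14, as descriptions over genes that share libraries. The ratios in 3D and 2D had r of 0.45, against 0.44 over all genes. Of the 77, 34 have a pseudogene named after them and 34 an exon overlap with another coding gene in GENCODE 29, 54 have either, and their values are uncertain where fragments could be split or shared. The 23 with neither had median log2 hypoxia ratios of -0.29 in 3D and -0.30 in 2D, beside -0.31 and -0.19 for the 54.

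RefSeq promoter windows of 300 bases matched 68 of the 77 symbols. Of these, 28 (41.2%) held CCGGAAG on either strand, an ETS-type motif of the kind that GABP, a regulator of mitochondrial genes, binds; it was held by 19.5% of the 9423 tested genes with a window and by 10.7% of all 27305 windows. ACGTG was held by 19 (27.9%), against 27.1% of tested genes and 21.6% of all windows. The motif of NRF1, another regulator of mitochondrial genes, was taken as GCGC and TGCGC with any 1 base between them; it was held by 8 (11.8%), against 12.05% and 6.28%. In 1 window, that of MRPL17 (1.47%, against 2.32% and 1.36%), the base between was A, which makes the motif a palindrome. Genes with and without CCGGAAG had median log2 hypoxia ratios of -0.33 and -0.31 in 3D and of -0.20 and -0.25 in 2D. With and without ACGTG these were -0.31 and -0.32 in 3D and -0.20 and -0.25 in 2D. The 8 genes with the NRF1 motif had medians nearer to 0 than those without, -0.15 against -0.32 in 3D and -0.14 against -0.25 in 2D, a difference that was not tested. A match describes the letters of a window and is not evidence of binding.

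Lists of other genes of mitochondrial gene expression also had hypoxia medians below 0 in both cultures, of different sizes, and the differences from the 77 genes were not tested. Their counts at an unadjusted limma p below 0.05, all of lower genes, are to be read against the 12.7% of all genes that were lower at that p. The 6 mitoribosomal proteins with other symbols (DAP3, PTCD3, CHCHD1, AURKAIP1, ICT1 and GADD45GIP1) had median log2 ratios of -0.30 in 3D and -0.20 in 2D, with 6 of 6 below 0 in both; by limma 0 passed and 3 had an unadjusted p below 0.05. ICT1, a peptidyl-tRNA hydrolase built into the large subunit, stood at 50.8, 38.4, 43.0 and 26.9 FPKM. Of 16 translation factors, with medians of -0.24 and -0.12, 0 passed in limma and 4 had an unadjusted p below 0.05. TUFM, the elongation factor that brings tRNA to the ribosome, stood at 130.3, 93.5, 172 and 134 FPKM. Both genes were lower in hypoxia in both cultures, and TUFM was lower in 3D where ICT1 was higher.

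Among 21 genes of mitoribosome assembly and ribosomal RNA modification the medians were -0.27 and -0.19; by limma 0 passed in hypoxia and 5 had an unadjusted p below 0.05, with MRM1, a methyltransferase of the large ribosomal RNA, at 14.6, 10.9, 16.0 and 10.7 FPKM. The 11 genes of mitochondrial transcription and RNA processing had medians of -0.36 and -0.15, with 0 passing and 3 at an unadjusted limma p below 0.05. Their lowest average was that of KIAA0391, the nuclease of mitochondrial RNase P, at 18.5, 13.4, 25.5 and 15.8 FPKM. For 17 mitochondrial aminoacyl-tRNA synthetases the medians were -0.23 and -0.31, with 0 passing and 9 at an unadjusted limma p below 0.05; LARS2, which charges leucine tRNA, stood at 7.03, 4.48, 11.2 and 7.10 FPKM. Both MRM1 and LARS2 had hypoxia libraries below the normoxia library of the same culture.

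In the culture comparison the medians of these lists lay below that of the 77 genes. The median average log2 difference of 3D over 2D was 0.22 for the 77 genes, -0.11 for the synthetases, -0.17 for transcription and RNA processing, -0.11 for assembly, 0.03 for translation factors and 0.13 for mitoribosomal proteins with other symbols. Rescaled to one FPKM sum these were 0.02, -0.30, -0.36, -0.30, -0.15 and -0.06. Cytosolic ribosomal proteins and the respiratory chain and ATP synthase genes had higher medians than the 77 genes, 0.52 and 0.25, and after rescaling 0.32 and 0.06. By limma, among the genes called, AARS2 and LARS2 fell in 3D and WARS2 rose; ELAC2 and TEFM fell; METTL17 fell and MTERF4 rose. The differences between lists were not tested.

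Of 9 regulators of mitochondrial biogenesis, 8 passed the filter, with PPARGC1B below it. Their median log2 hypoxia ratios were -0.06 and -0.02, and by limma 0 passed in hypoxia, with 1 lower and 1 higher at an unadjusted p below 0.05. The higher one was MYC, a transcription factor of growth genes, at 34.0, 55.5, 46.2 and 66.2 FPKM (average log2 difference 0.60 ± 0.12, SE, limma, adjusted p = 0.0563). The lower one, PPARGC1A, the coactivator of mitochondrial biogenesis, stood at 2.29, 1.42, 3.32 and 2.22 FPKM. PPRC1, a related coactivator, fell in 3D (average log2 difference -0.66).

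Cytosolic ribosomal proteins had hypoxia ratios of the opposite sign to the mitochondrial ones. Their 76 genes had median log2 hypoxia ratios of 0.19 in 3D and 0.36 in 2D, with 72 and 74 of 76 above 0 (47.7% and 49.6% of all genes). After rescaling to one FPKM sum 47 and 66 lay above 0, with medians of 0.05 and 0.23, beside 4279 and 4399 of all 12663 genes. By limma 0 passed and 10 of 76 were higher at an unadjusted p below 0.05, a share near the 12.9% of all genes. The FPKM sum of the cytosolic genes was 23.0, 32.3, 18.2 and 27.2 times that of the mitochondrial ones, higher in hypoxia than in normoxia in both cultures. The 75 respiratory chain and ATP synthase genes had medians of -0.31 in 3D and -0.08 in 2D, with 70 and 50 of 75 below 0. By limma 1 of the 75 fell, a share near the 1.64% of all genes, and 0 rose (3.2%). At an unadjusted limma p below 0.05, 16 of 75 were lower (12.7% of all genes) and 0 were higher (12.9%). The gene that fell was ATP5G1, which encodes the ring subunit c of ATP synthase, at 305, 184, 287 and 177 FPKM. Its average log2 difference was -0.71 ± 0.13 (SE, limma, adjusted p = 0.0446). In 3D the median of the 75 genes equalled that of the mitochondrial ribosomal proteins to 2 decimals. In 2D the median of the 75 lay closer to 0, a difference that was not tested.

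**Figure D5:**
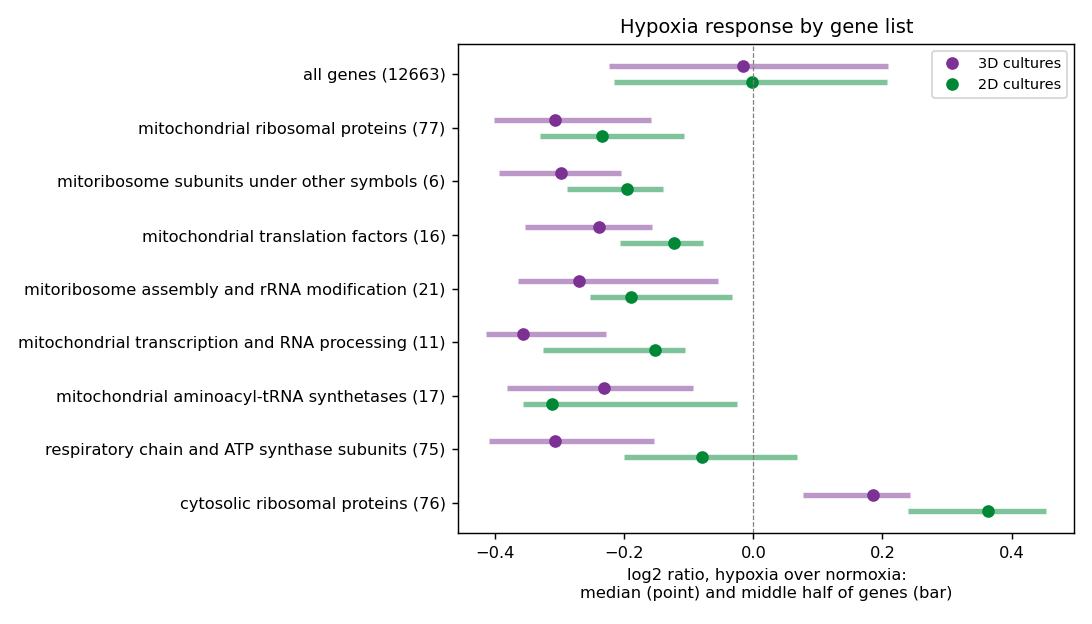
Median log2 ratio of hypoxia over normoxia (point) and range from the lower to the upper quartile of the genes (bar) on the horizontal axis, in 3D (purple) and 2D (green), for each list of genes on the vertical axis with its size in brackets. The mitochondrial lists have medians below 0 in both cultures, and the cytosolic ribosomal proteins have medians of 0.19 and 0.36.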

How the data were processed

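Messenger RNA of A549 cells was sequenced in 4 libraries, 1 per group, and the values deposited by the authors are in FPKM, with 1 value for each symbol in each library. The submitters' processing notes list Cuffdiff 2.2.1, TopHat2 2.1.1, SAMtools 0.1.18, Bowtie2 2.2.8 and the hg19 build. The kit was TruSeq Stranded mRNA, per the labels' protocols. For the annotation, the scaling of libraries and the strand setting, no statement is given in the sources used here.

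Values were taken as log2(FPKM + 1), with genes of mean FPKM of at least 1 kept. The average effects of oxygen and culture came from limma 3.58.1 (R 4.3.3) with a mean-variance trend and Benjamini-Hochberg adjustment over all 12663 genes (threshold 0.05); it was tested on simulated data, where the share of false calls came out above that threshold, so calls close to it are uncertain. With 1 residual degree of freedom its spread leans on a prior of 4.67 degrees of freedom. The 4 pairwise ratios and the difference of responses carry no test. The product of FPKM and transcript length was taken for low genes, and its commonest value, read as 1 fragment, gave each library's depth; counting errors made from it cover counting only. GENCODE 29 served for transcript lengths, pseudogenes and exon overlaps, not for coordinates.

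Members and gene lists were chosen with earlier results of these data known. Named were the 5 genes of highest and of lowest mean, the 5 highest and lowest ratios in each pair and in the difference of responses, all members called by limma, and up to 3 genes with the largest hypoxia effect of each other list; further genes were named after their values were seen. Alternatives changed the pseudocount, the filter, the scaling, the trend, the genes tested and the assignment to subunits.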

Additional observations from a re-analysis of the deposited data

Results flagged for a closer look

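In 5 genes hypoxia was the lower library in 3D and the higher in 2D, with a gap between the 2 responses of more than 0.32 on the log2 scale. The 3D response minus the 2D response was -0.5056 (log2) for MRPS10, -0.4591 for MRPL51, -0.415 for MRPL33, -0.4047 for MRPL11 and -0.3816 for MRPL20. MRPL20, a large subunit protein conserved in bacteria, stood at 83.4, 66.6, 62.3 and 65.02 FPKM, normoxia then hypoxia in 3D followed by the same in 2D. With 1 library in each group these differences were not tested. With libraries rescaled to one FPKM sum, the 2D ratio stayed above 0 in MRPL33 and was below 0 in the other 4. MRPS10 and MRPL20 have named pseudogenes (2 and 1), and exons of MRPL51, MRPL33 and MRPL11 overlap those of NCAPD2, BABAM2 and PELI3; the part of shared sequence in these values was not tested.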

How the results depend on the processing

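Median hypoxia ratios of the 77 genes stayed below 0 in both cultures under every setting run. With libraries rescaled to an FPKM sum of 1000000 the medians were -0.44 in 3D, -0.37 in 2D and -0.39 (-0.385) for the average effect. In 2D 94.8% of the 77 genes were below 0, beside 8252 of all 12663 genes. The culture medians were 0.0496 in normoxia, -0.0430 in hypoxia and 0.0210 on average, and the shares above 0 were 59.7% and 44.2%. Of all 12663 genes, 4044 and 4060 lay above 0 in those pairs. Over all genes this rescaling shifted medians by -0.12 and -0.13 in the hypoxia pairs and by -0.18 in the culture pairs. By limma, members lower in hypoxia (1 as reported) numbered 0 with a pseudocount of 0.1, with no filter, with centred libraries and without the trend, 3 with a mean of at least 5 FPKM, and 5 when rescaled or when small RNA genes were left out together with genes listed at 0; over all genes, where 208 were lower as reported, the counts moved the same way, to 197, 0, 93, 112, 313, 475 and 531 in that order. Members higher in 3D (8 as reported) numbered 0 with no filter and 3 when rescaled, when 1 was lower. Over all genes 1313 were higher as reported, 1 with no filter and 767 when rescaled, when 3132 were lower. The large minus small difference of medians was 0.0026 in 3D hypoxia with subunits assigned by place. In an alternative chosen after seeing the data, without members that have a named pseudogene or an exon overlap, it was 0.0817 in the 3D hypoxia ratio, 0.15 and 0.0833 in the culture ratios in normoxia and hypoxia, and 0.0385 in the difference of responses, of which 52.2% lay below 0. The causes were not tested. No paired analysis was possible because the labels give no replicate numbers and each group has 1 library. Depth limits single ratios: 49 genes in 3D and 54 in 2D were below 0 by more than 2 counting errors, and 0 and 3 above. No share of all genes is given for these counts, so they do not set the 77 genes apart. The counting error was also smaller in 2D (median 0.06) than in 3D (0.09), so the 3D and 2D counts are not alike.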
